A study of Arabidopsis thaliana with 33 samples.

Results

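The 5 genes described here encode wall and receptor proteins of pollen in Arabidopsis thaliana. They are LRX8 (AT3G19020), LRX9 (AT1G49490), LRX10 (AT2G15880) and LRX11 (AT4G33970), which are leucine-rich repeat extensins, and ANX1 (AT3G04690), a receptor kinase. Members were every array probe annotated to one of these genes, and each gene had 1 probe, so 5 of 26090 gene probes were used. The probes followed from their annotation and not from a measured value, but the genes were chosen with earlier results of these data known. LRX8 to LRX11 were found through their published loci, since the reference gene table lists those loci without the LRX symbols, and ANX1 was found by its symbol. How far a probe also binds RNA of a related LRX or receptor gene was not tested.

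A pollen grain germinates a tube that grows through the pistil to an ovule, and its wall must stretch at the tip without bursting. LRX proteins join a leucine-rich repeat part, which binds small secreted RALF peptides, to an extensin part that is anchored in the wall. ANX1 and its relatives ANX2, BUPS1 and BUPS2 are receptor kinases of the CrRLK1L family at the tube's surface that take up the same peptide signal, and the kinase MRI acts further inside the cell. In Arabidopsis, tubes that lack the pollen LRX proteins or both ANX receptors burst early, and the RNAs of these genes accumulate late in pollen maturation.

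The study asked which genes are active in successive phases of stamen development, and compared flower tissue of 3 mutants with wild type on 33 arrays that carry mutant RNA in one dye and wild-type RNA in the other. The ap3 mutant lacks petals and stamens, and its sample held the meristem and young buds only, up to flower stage 10 (4 arrays). The nzz mutant fails to start sporogenesis and the ms1 mutant makes no viable pollen. Samples of nzz and ms1 held the meristem with all buds up to mature flowers of stage 13 (4 arrays each). A further ms1 experiment split the flowers into 7 samples by age, with 3 arrays each from 3 sets collected on different days. Wild type of the same tissue was the partner on every array, and the tissue of a sample came from 50 plants grown at 20 °C. The labels do not say whether arrays share a wild-type RNA. The labels speak of at least 3 independent samples, so the 4 arrays of a mutant may include repeats of a sample. Where they do, the p-values measure partly technical spread. The mutant RNA was in Cy3 on ap3 replicates 1 and 4, ms1 replicates 2 and 4, nzz replicates 3 and 4 and series sets 1 and 3, and in Cy5 on the others.

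All values below are log2 ratios of mutant over wild type, so negative values mean less RNA in the mutant. The direction and the log base were inferred from the deposited values and are likely, not settled. The side on which pollen genes lie was part of the reason for the sign, so a lower value of a pollen gene is no independent evidence of it. Were the sign the other way round, each lower value here would be a higher one. The table holds ratios without signal levels, so levels of different genes cannot be compared. Ratios stop at 100-fold (6.64 on the log2 scale), where a value is only a bound, and between 2.37% and 17.7% of an array's values lay there. Of 165 member values, 6 lay at this limit and 2 were missing. Of all limited values at gene probes, 97.4% lay on the side set by the dyes, as did 98.7% at empty spots. All 6 limited member values were negative on arrays with the mutant in Cy3, which is that side, so their sign need not reflect the mutant. Errors are standard errors from limma, which takes 1 spread per gene from all arrays of a fit. An error is thus not the spread of the group beside which it is printed. Calls were made at 0.05 on p-values adjusted by Benjamini and Hochberg's method across every gene probe tested. Of the 3 mutated genes only NZZ (symbol SPL) had a named probe, and in nzz it stood at -0.35, -0.29, -0.15 and -0.25 on replicates 1 to 4 (-0.26 ± 0.12, limma adjusted p = 0.174). The position of that probe in the gene is unknown here, so it does not check the labels.

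LRX8 fell in nzz and ANX1 fell in nzz and in ms1, while no member passed the test in ap3. LRX9, LRX10 and LRX11 passed it in none of the 3 mutants. In nzz 2 of 5 members were called lower, against 6.91% of all gene probes. In ms1 1 of 5 was called lower, against 1.74% of all gene probes, and in ap3 0 of 5, against 0.123%. The median of the members' ratios was -0.63 in nzz, -0.93 in ms1 and -0.31 in ap3, beside 0.10, 0.02 and 0.02 over all gene probes. With no dye term in the fit, or with the deposited values read as dye ratios, none of these calls held (0 of 5 members in each mutant). In ap3, arrays with opposite dyes were negatively correlated (r of -0.18 to -0.08 over probes with no limited value). The ap3 ratios, called or not, are thus poorly settled. The tissue is a mixture of cells, and in bulk RNA fewer pollen cells and less RNA per pollen cell cannot be told apart.

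LRX8, a leucine-rich repeat extensin of the pollen wall, had the lowest fitted ratio of the pollen LRX genes in nzz. Its ratios on nzz replicates 1 to 4 were -0.58, -2.06, -6.64 (at the limit) and -4.34. The arrays with the mutant in Cy3 held the low values, and every nzz array was below 0. The fitted ratio was -3.41 ± 0.69 (10.6-fold lower, limma adjusted p = 0.0128). Its mean rests partly on the limited value, which lies on the side set by the dyes. Without nzz replicate 3, which holds the limited value, it was -2.76 (adjusted p = 0.055), and without nzz replicate 2 it was -3.34 (adjusted p = 0.0605).

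In ms1, LRX8 stood at -1.44, -6.29, -1.22 and -2.29 on replicates 1 to 4. All 4 arrays were below 0 and replicate 2 lay far below the rest. The arrays with the mutant in Cy3, replicates 2 and 4, again held the low values. The fitted ratio of -2.81 ± 0.69 did not pass the test (limma adjusted p = 0.0904). It passed without ms1 replicate 4 (-3.57, adjusted p = 0.0392) and stood at -2.07 (adjusted p = 0.321) without ms1 replicate 2. In ap3 buds, LRX8 read -1.53, -0.50, 1.91 and -0.95. Replicates 2 and 3 lay above every nzz and ms1 array. Replicates 1 and 4, with the mutant in Cy3, lay within the range of the nzz arrays. The fitted ratio was -0.27 ± 0.69 (limma adjusted p = 1).

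LRX9 is a second pollen LRX gene and its ratios lay within 1 unit of 0. On nzz replicates 1 to 4 they were -0.54, -0.77, -0.48 and -0.15, on ms1 replicates -0.54, 0.17, -0.32 and -0.44, and on ap3 replicates -0.84, -0.20, 0.0084 and -0.20. The nzz arrays were all below 0, and the 3 mutants overlapped. Fitted over the arrays, LRX9 stood at -0.48 ± 0.16 in nzz, -0.28 ± 0.16 in ms1 and -0.31 ± 0.16 in ap3 (limma adjusted p of 0.076, 0.456 and 0.598).

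LRX10, a further pollen LRX gene, was the member nearest to 0 in all 3 mutants. Its nzz arrays lay between -0.07 and -0.03, its ms1 arrays between -0.18 and 0.05, and its ap3 arrays between -0.39 and 0.48. The fitted ratios were -0.05 ± 0.10, -0.07 ± 0.10 and 0.05 ± 0.10 in that order, with limma adjusted p of 0.815, 0.77 and 1. All 3 lay within 1 SE of 0.

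LRX11, the remaining pollen LRX gene, lay between LRX8 and LRX9 in ms1. Its ms1 arrays read -1.13, -0.86, -1.10 and -0.64, which is below 0 throughout with little spread. Its nzz arrays read -1.0, -0.74, -0.98 and 0.21, and its ap3 arrays -0.01, -0.76, -0.18 and -1.66. Those groups overlapped with ms1. The fitted ratios were -0.93 ± 0.28 in ms1, -0.63 ± 0.28 in nzz and -0.65 ± 0.28 in ap3, and none passed the test (limma adjusted p of 0.155, 0.16 and 0.502).

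ANX1 stood at -1.77, -1.81, -2.88 and -2.05 on nzz replicates 1 to 4. These arrays lay close together in both dye orientations. The fitted ratio was -2.13 ± 0.62 (4.36-fold lower, limma adjusted p = 0.0485). That p lies near the threshold, and the call was lost without any 1 of the 4 nzz replicates in turn, at ratios between -2.42 and -1.98 (adjusted p of 0.172, 0.165, 0.122 and 0.0783 without replicates 1 to 4). It was also lost without the dye term (limma adjusted p = 0.0905) and as dye ratios (0.889). The call held with limited values missing (0.000289), with scaled arrays (0.00362) and with nzz fitted alone (0.0334). The error is shared with ms1, where the standard deviation of the ANX1 arrays was 2.41, against 0.52 in nzz.

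On ms1 replicates 1 to 4, ANX1 read -1.99, -6.64 (at the limit), -1.44 and -2.19. All 4 arrays were below 0, and 3 of them lay in the range of the nzz arrays or just above it while replicate 2, a limited value on the side set by the dyes, was far lower. The fitted ratio was -3.07 ± 0.62 (8.38-fold lower, limma adjusted p = 0.0387). Without replicate 2 it was -1.99 and still called (adjusted p = 0.0117), and it lost the call without replicate 1 (-3.21, adjusted p = 0.108) and without replicate 3 (-3.41, adjusted p = 0.097). That second ms1 array carried 9.99% of its values at the limit, and its part in the result beyond these values was not tested. In ap3, ANX1 read -0.83, -0.75, 0.34 and -1.25, above every nzz and ms1 array, with a fitted ratio of -0.62 ± 0.62 (limma adjusted p = 0.856).

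**Figure D1:**
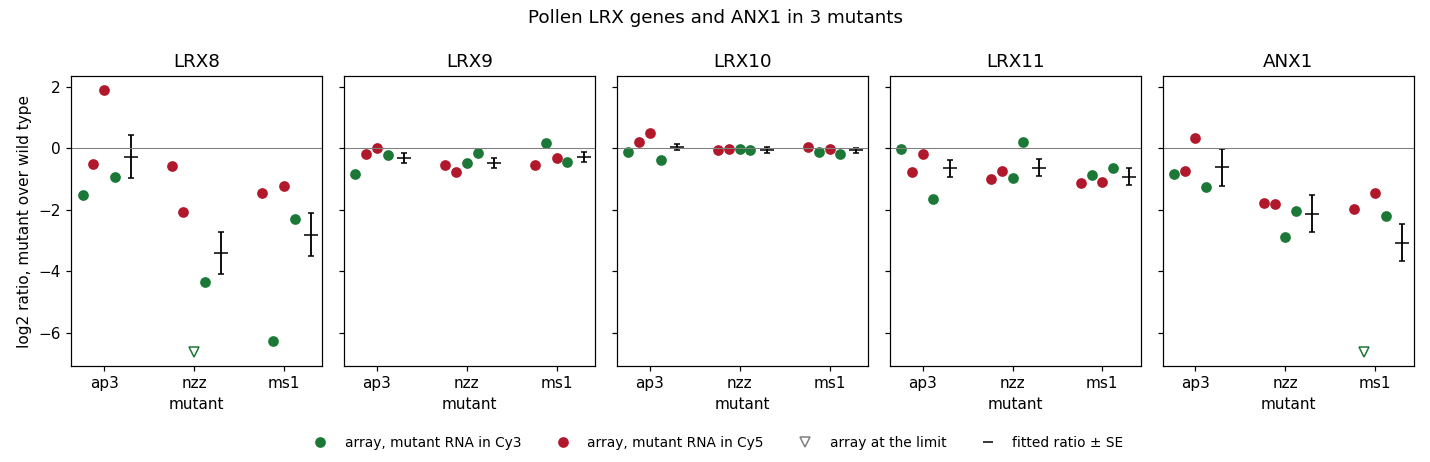
Log2 ratio of mutant over wild type (y axis) of the 5 genes in ap3, nzz and ms1, with 1 point per array coloured by the dye of the mutant RNA, an open triangle for an array at the limit, and a black bar for the fitted ratio ± SE. LRX8 and ANX1 lay below 0 on every nzz and ms1 array, and LRX10 stayed between -0.18 and 0.05 there.

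The mutants were not shown to differ from each other at any member. Between ms1 and nzz 0 of 5 members were called, against 0.685% of all gene probes, with a difference of 0.60 ± 0.98 for LRX8 and -0.94 ± 0.87 for ANX1 (limma adjusted p of 0.804 and 0.637). Between ap3 and nzz 0 of 5 were called, against 2.9%, with differences of 3.14 ± 0.98 for LRX8 and 1.5 ± 0.87 for ANX1 (limma adjusted p of 0.145 and 0.444). The tissue of ap3 ended at younger buds than that of nzz, so mutant and flower age cannot be told apart in this difference. The errors of the LRX8 and ANX1 differences were near 1 unit, so a p that misses the threshold does not show that the mutants acted alike.

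Set side by side within an array, LRX8 and ANX1 lay below the other pollen LRX genes. On the 8 nzz and ms1 arrays, ANX1 was lower than LRX9, LRX10 and LRX11 on 8 of 8. LRX8 was lower than LRX9 and LRX10 on 8 of 8 and lower than LRX11 on 7 of 8. Between LRX8 and ANX1 there was no fixed order, since LRX8 was the lower on 4 of 8. LRX8 was the lowest of the 5 on 3 of 4 nzz arrays, and ANX1 on 3 of 4 ms1 arrays. These counts compare differences from wild type, not amounts of RNA, and the genes share the arrays.

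The 7 samples of the ms1 series addressed when in flower development the genes differ from wild type. Per the labels, sample 1 held mature flowers and the later numbers successively younger buds, down to the meristem in sample 7. VGD1, a pectin methylesterase gene whose RNA is known to accumulate late in pollen, was called lower in samples 4 to 7 (-3.65, -4.20, -4.20 and -3.73, each ± 0.32, limma adjusted p at most 5.47e-05) and not in samples 1 to 3 (-0.60, 0.26 and -0.64). By the labelled order, VGD1 would be lower in the younger buds and not in mature flowers. That sits poorly with an RNA that accumulates late, and the order may be reversed in the labels. The table has no levels, so whether the numbers run as described was not tested. The samples are called here by their labelled number, and no flower age is read from a low value in samples 6 or 7. Arrays with opposite dyes were poorly correlated in the sample labelled 1 (r of -0.52 to -0.17 over probes with no limited value), so its ratios are the least settled.

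The fitted ratios of all 5 members lay below 0 in the samples labelled 6 and 7, and LRX8 fell in the sample labelled 6. Of 15 array values in sample 6 all were negative, as were 14 of 15 in sample 7. In samples 1 to 5 the negative values were 7 of 15, 6 of 14, 3 of 15, 5 of 15 and 2 of 14. The 5 genes share the arrays of a sample, so these values are not independent. The share of negative values over all gene probes was not counted. The members' median was -1.48 in sample 6 and -1.11 in sample 7, beside 0.08 and 0.07 over all gene probes. In samples 1 to 5 it was 0.11, -0.13, 0.18, 0.10 and 0.26, beside 0.0025, 0.07, 0.04, 0.04 and 0.06. Of 5 members, 1 was called lower in sample 6 (0.713% of all gene probes) and 0 in sample 7 (0.552%). No member was called in samples 1 to 5, where 0.00767%, 0.376%, 0.833%, 0.652% and 0.79% of all gene probes were called lower. These series calls come from a fit that left out the set. With the set as a replicate block, LRX8 was also called in sample 7 and LRX11 in sample 6. Calls over all gene probes then rose to 756 of 26072 in sample 6 and 325 of 26076 in sample 7.

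LRX8 on sets 1, 2 and 3 of sample 6 stood at -6.64 (at the limit), -3.08 and -3.98. On the same sets of sample 7 it stood at -5.48, -2.39 and -5.02. These 6 values lay below all other LRX8 values of the series except one limited value in sample 1. In both samples set 2, with the mutant in Cy5, held the highest value. The fitted ratio in sample 6 was -4.23 ± 0.83 (18.8-fold lower, limma adjusted p = 0.0251), and in sample 7 it was -3.96 ± 0.83 (adjusted p = 0.051). The call in sample 6 was lost without set 1 (-3.53, adjusted p = 0.131), without set 2 (-5.31, adjusted p = 0.107) and without set 3 (-4.86, adjusted p = 0.0727). With the set as a replicate block, which the labels' collection days support, LRX8 passed in sample 6 and sample 7 (limma adjusted p of 0.0202 and 0.0421). The sample 6 call was lost with arrays scaled to one spread (-3.66, adjusted p = 0.127) and without the dye term (-4.57, adjusted p = 0.0592).

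In the samples labelled 1 to 5, LRX8 was near or above 0 on most arrays. Sets 1, 2 and 3 read -0.58, -0.17 and -6.64 (at the limit) in sample 1, 0.22, 1.26 and -0.58 in sample 2, and 0.30, 3.49 and 0.42 in sample 3. They read -0.17, 0.87 and -0.27 in sample 4 and -0.29, -0.14 and 0.16 in sample 5. The highest value was that of set 2, the set with the mutant in Cy5, in each of samples 1 to 4. In sample 1 a single limited array set the fitted ratio of -2.13 ± 0.83. The fitted ratios of samples 2 to 5 were 0.63, 1.74, 0.48 and 0.25, each ± 0.83.

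LRX9 read -1.24, -1.31 and -0.26 on the 3 sets of sample 6 and -1.64, -0.62 and -1.06 on those of sample 7. All 6 values were negative, and 4 of them lay below the range of samples 1 to 5, which was -0.87 to 0.45. The fitted values were -0.94 ± 0.24 and -1.11 ± 0.24, short of the threshold (limma adjusted p of 0.118 and 0.0679).

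LRX10, which stayed near 0 in the whole nzz and ms1 inflorescences, read -0.74, -0.61 and -0.06 in sample 6 and -1.50, -0.30 and -0.48 in sample 7. In samples 1 to 5 its 15 values lay between -0.01 and 0.45, with the lowest of them just above the -0.06 of sample 6. How many of all gene probes are split in this way was not counted. The fitted ratios of -0.46 ± 0.18 and -0.75 ± 0.18 did not pass the test (limma adjusted p of 0.369 and 0.131).

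LRX11 read -1.78, -2.30 and -0.29 in sample 6 and -2.16, 0.03 and -0.94 in sample 7. In samples 1 to 5 it lay between -0.79 and 0.79, which overlaps with single arrays of samples 6 and 7. The fitted ratios were -1.48 ± 0.38 (limma adjusted p = 0.115) and -1.05 ± 0.38 (adjusted p = 0.54). With the set as a replicate block, LRX11 passed in sample 6 (limma adjusted p = 0.0478). With LRX8 in sample 7, this brought the members' calls over the 7 samples from 1 to 3, while the calls over all gene probes in sample 6 rose to 756 of 26072.

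ANX1, the receptor kinase, read -3.98, -2.19 and -2.34 in sample 6 and -4.72, -0.74 and -2.71 in sample 7. All 6 values were negative. Its earlier-numbered samples were scattered, with 0.87, -0.45 and -1.67 in sample 1, -1.41, 1.83 and -6.64 (at the limit) in sample 3, and -6.64 (at the limit) and -1.07 in sample 2, where set 2 was missing. In samples 4 and 5 the values lay between -0.14 and 0.67, with 1 missing. The large spread gave a standard error of 1.24, and neither -2.56 in sample 6 nor -2.45 in sample 7 passed the test (limma adjusted p of 0.534 and 0.834).

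**Figure D2:**
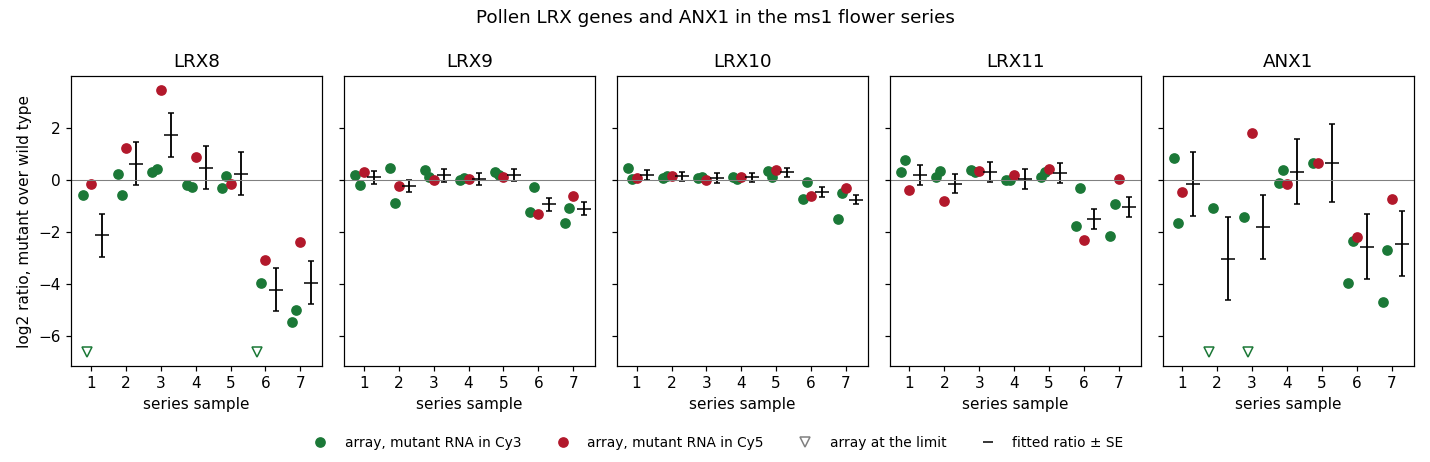
Log2 ratio of ms1 over wild type (y axis) of the 5 genes in the 7 series samples by labelled number, with 1 point per array coloured by the dye of the ms1 RNA, an open triangle for an array at the limit, and a black bar for the fitted ratio ± SE. LRX8 stood at 0.25 in sample 5 and -4.23 in sample 6, and LRX9, LRX10 and LRX11 lay between -1.48 and -0.46 in samples 6 and 7.

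Across the 7 samples, the ratio of LRX8 changed with the labelled number and those of the other members did not pass the test. The F statistic of LRX8 over the 7 samples was 8.42 (limma adjusted p = 0.04), and 1 of 5 members was called against 1.35% of all gene probes. This call was lost without any 1 of the 3 sets (adjusted p of 0.672, 0.617 and 0.213 without sets 1 to 3). The F adjusted p was 0.209 for LRX9, 0.29 for LRX10, 0.547 for LRX11 and 1 for ANX1. In the contrasts with sample 7, LRX8 was higher in sample 3 by 5.70 ± 1.17 (limma adjusted p = 0.0264), which was 1 of 5 members against 1.11% of all gene probes. The size held between 5.61 and 5.83 without each set in turn, but the call was lost each time (adjusted p between 0.102 and 0.416). The other contrasts with sample 7 called 0 of 5 members, for samples 1, 2, 4, 5 and 6 against 0.0652%, 0.392%, 0.775%, 0.268% and 0% of all gene probes. In the contrast of samples 6 and 7, where limma called 0 of 26062 probes (584 at an unadjusted p under 0.05), LRX8 differed by -0.27 ± 1.17.

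Over the 10 fitted group ratios (3 mutants and 7 series samples), LRX9 and LRX10 ran closest together, with a Pearson r of 0.94. LRX9 with LRX11 gave 0.91, LRX10 with LRX11 0.81, and LRX8 with LRX11, LRX9 and LRX10 0.80, 0.79 and 0.73. ANX1 was less like the others, with r between 0.43 (LRX8) and 0.62 (LRX11). Its fitted ratios in ms1 and in samples 2 and 3 (-3.07, -3.03 and -1.80) each include 1 limited value on the side set by the dyes. So do those of LRX8 in nzz and in samples 1 and 6. The part of these values in the r of ANX1 and LRX8, here and with the genes named below, was not tested. All these r are descriptions over 10 points that share arrays, dye terms and a common fit. By the same measure over 13627 genes, the closest to LRX8 were AT2G23900 (r = 0.946), AT1G64610 (0.924) and AT3G46750 (0.917). The closest to ANX1 were AT5G23160 (0.890), AT4G11810 (0.868) and AT2G44660 (0.867). These genes were picked as the highest of 13627 over 10 points, so their r are high partly by that choice.

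LRX genes of other organs stood near 0 where LRX8 was low. LRX4 and LRX5 are known from vegetative tissue, and 3 of the 7 LRX genes outside the pollen group (LRX4, LRX5 and LRX6) had a named probe. None of the 3 was called in any mutant or series sample. In nzz they stood at 0.07 ± 0.06, 0.06 ± 0.15 and 0.09 ± 0.16, where LRX8 stood at -3.41. The pollen genes LRX9, LRX10 and LRX11 stood at -0.48, -0.05 and -0.63 there, uncalled. A ratio near 0 in nzz was thus not particular to the LRX genes of other organs. In sample 7 they lay between -0.21 and 0.04, where the 4 pollen LRX genes lay between -3.96 and -0.75. The difference between the gene groups was not tested.

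**Figure D3:**
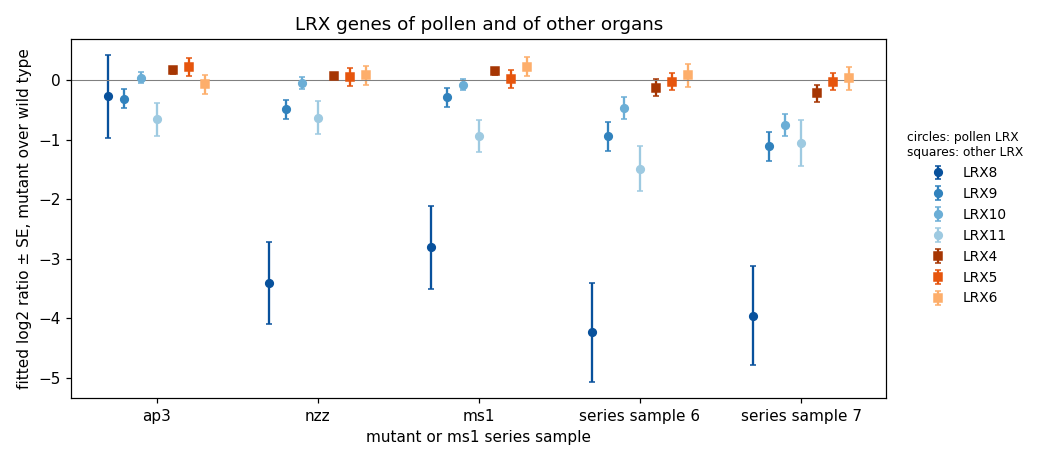
Fitted log2 ratios ± SE of mutant over wild type (y axis) of the pollen LRX genes LRX8 to LRX11 (circles) and of LRX4, LRX5 and LRX6 (squares) in the 3 mutants and in series samples 6 and 7. The squares stay between -0.21 and 0.23, while LRX8 lies at -2.81 or below in every group except ap3. The pollen gene LRX10 lies at -0.05 in nzz and -0.07 in ms1.

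The partner receptors of ANX1 and their pathway were thinly covered, with 3 of 17 listed genes measured. BUPS1, the receptor kinase that pairs with ANX1, fell in nzz and ms1. It read -1.81, -1.77, -2.93 and -2.70 on nzz replicates and -1.04, -2.37, -2.16 and -1.06 on ms1 replicates, with every array below -1. The fitted ratios were -2.30 ± 0.25 and -1.66 ± 0.25 (limma adjusted p of 0.000726 and 0.0111), and without ms1 replicate 2 the latter was -1.54 (adjusted p = 0.0662). The ms1 call was also lost with the replicate block (adjusted p = 0.0558) and with ms1 fitted alone (adjusted p = 0.532), where 0 of 26039 probes were called. With values read as dye ratios, BUPS1 stood at -0.51 in nzz and -0.06 in ms1, both uncalled.

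BUPS1 also fell in the samples labelled 6 and 7. Its sets read -1.61, -2.15 and -2.30 in sample 6 and -3.74, -2.04 and -2.74 in sample 7. Fitted ratios were -1.93 ± 0.33 (limma adjusted p = 0.00922) and -2.75 ± 0.33 (adjusted p = 0.000738). Both calls were lost without set 3 (adjusted p of 0.313 and 0.183), and that of sample 6 also without set 2 (adjusted p = 0.073). In ap3 buds, BUPS1 stood at -0.63 ± 0.25, above its nzz ratio by 1.67 ± 0.36 (limma adjusted p = 0.0437). None of its array values in nzz, ms1 or these samples lay at the limit.

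BUPS2, the second such receptor, and MRI, the kinase, were called in no group. BUPS2 stood at -0.49 ± 0.95 in nzz and -0.77 ± 0.95 in ms1, and MRI at -1.03 ± 0.84 and -2.34 ± 0.84. In sample 6, MRI read -6.64 (at the limit), -2.56 and -1.82 on sets 1 to 3, all negative, with a fitted ratio of -3.46 ± 1.04 (limma adjusted p = 0.183). Among the other receptor kinases of the family, THE1, a sensor of wall integrity in growing organs, rose in nzz (0.51 ± 0.12, limma adjusted p = 0.0241), where 8.32% of all gene probes were called higher. FER and CVY1, the other 2 measured of 7 listed, were called in no group.

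Of 32 RALF-like peptide genes, the family that supplies the ligands, 9 were measured and 7 of these were called nowhere. RALFL25 fell in both sterile mutants. It read -2.11, -1.58, -1.47 and -1.95 on nzz replicates and -1.97, -2.47, -2.13 and -1.50 on ms1 replicates, tightly grouped in both dye orientations. Fitted ratios were -1.78 ± 0.21 and -2.02 ± 0.21 (limma adjusted p of 0.00101 and 0.00203), and in ap3 it was -0.88 ± 0.21 (adjusted p = 0.184). Series sample 6 gave -2.74 ± 0.53 (limma adjusted p = 0.0253) and sample 7 gave -2.51 ± 0.53 (adjusted p = 0.0587, or 0.0184 with the set as a replicate block). The sample 6 call was lost without any 1 of the sets (adjusted p between 0.0858 and 0.229). RALFL34, whose peptide is known from the female side of fertilisation, rose in nzz (0.57 ± 0.11, limma adjusted p = 0.00961).

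Other pollen genes and markers of other cells also moved in nzz. Of 4 measured genes of mature pollen, VGD1, VGDH1 and ACT12, an actin gene, fell in nzz and in ms1, at -4.02, -5.09 and -4.14 in nzz and -3.43, -4.22 and -2.69 in ms1. VGD1 was also called lower in ap3 (-2.36 ± 0.35, limma adjusted p = 0.0485), where VGDH1 stood at -2.49 ± 0.41 (adjusted p = 0.0776) and ACT12 at -0.56 ± 0.20. TUA1, a tubulin gene, was called in no group. VGD1 and VGDH1 are close relatives, and how far their probes bind both RNAs was not tested. Tapetum genes, markers of the nurse tissue around the pollen, were called lower in nzz for 6 of 7 measured (range of ratios -6.22 to -1.19) and in ms1 for 0 of 7 (-3.91 to 1.17). Of the carpel and ovule genes SPT and INO, 0 of 2 were called in any mutant or series sample, with 0.23 and 0.26 as the lowest and highest ratio in nzz. The part of these tissues in the members' ratios was not tested.

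In the series, the 7 measured tapetum genes had no common course. In sample 6, where all members were negative, 0 of 7 were called and their ratios ranged from -0.41 to 1.88. In sample 7, 1 of 7 was called and the range was -4.32 to 0.49. Lowest in samples 2 to 5 were ATA27 and SHT, genes of tapetal products (-5.02 to -3.17 there, uncalled, standard errors of 1.30 and 1.74), and the transcription factor genes bHLH010 (called in samples 3 to 5, at -0.97 to -0.86) and bHLH089 (-0.89 to -0.25, uncalled). Lowest in sample 7 were bHLH091 (-0.58), ATA20 (-1.66), both uncalled, and AMS, another transcription factor gene. The AMS call in sample 7 (-4.32, limma adjusted p = 0.00936) rested on 2 arrays, at -6.64 (at the limit) and -1.99, with set 1 missing. ACT12 was called lower from sample 2 to sample 7, between -3.75 and -1.75. Its ratios, like those of VGD1, were thus low in samples 4 and 5, where LRX8 stood at 0.48 and 0.25 and BUPS1 at -0.19 and -1.24. The mature pollen genes did not share this course. TUA1, uncalled, stood at 0.04 and 0.01 in samples 4 and 5 and at -0.43 and -0.52 in samples 6 and 7.

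**Figure D4:**
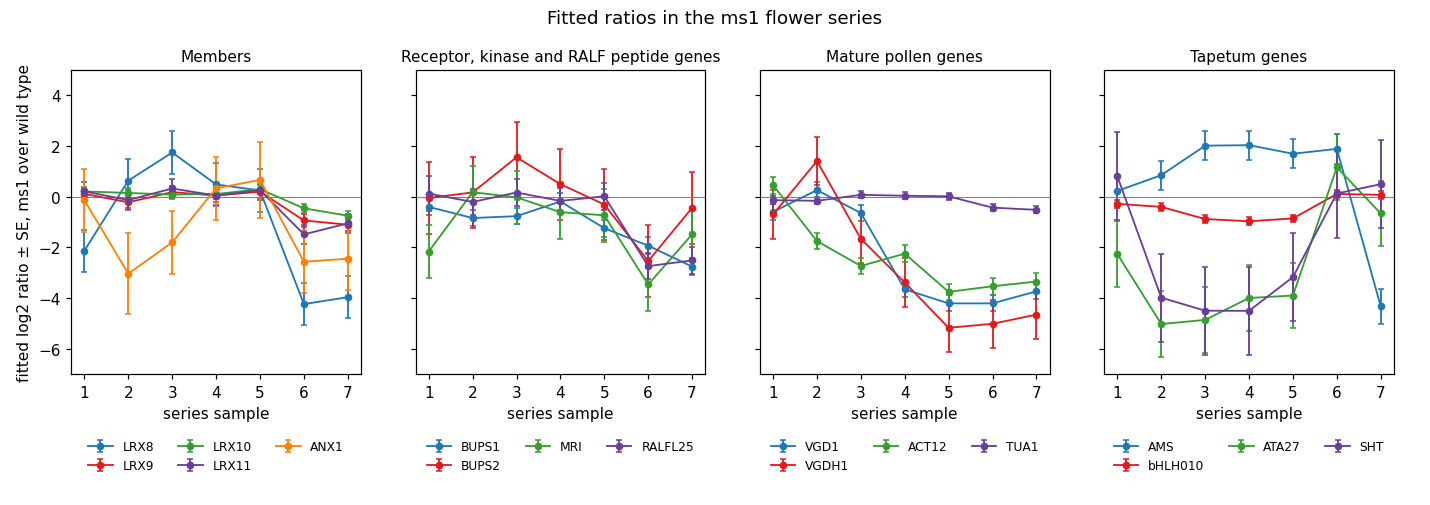
Fitted log2 ratios ± SE of ms1 over wild type (y axis) across the 7 series samples by labelled number, for the 5 members, the measured receptor, kinase and RALF peptide genes of the pathway with RALFL25, 4 mature pollen genes and 4 tapetum genes. LRX8, BUPS1, MRI and RALFL25 were lowest in sample 6 or 7, whereas VGD1 and ACT12 lie between -4.20 and -2.24 from sample 4 on. The mature pollen gene TUA1 was, like the former, lowest in samples 6 and 7 (-0.43 and -0.52).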

How the data were processed

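Per the labels' protocols, total RNA was amplified to antisense RNA, coupled to dyes and hybridised to oligonucleotide arrays. The authors deposited 1 normalized table, read here as log10 ratios. The base is inferred from a limit at -2 and 2, which base 10 makes 100-fold; with base 2 every log2 value would be 3.32 times too large and no call would change. How the images were read, corrected and normalized is not given in the sources used here. Each deposited ratio was converted to log2 and its sign turned, which makes negative mean lower in the mutant. The ratios were read as already turned to one direction on every array. Of the limited values, 97.4% at gene probes and 98.7% at empty spots took the side set by the dyes. Over probes with no limited value, the correlation of replicate arrays with switched dyes lay between 0.42 and 0.49 for nzz, between 0.08 and 0.31 for ms1 and between -0.18 and -0.08 for ap3, so the reading rests on uneven evidence. The sign rests on the study's design and the side of the pollen genes. Array medians lay between -0.08 and 0.14 on the log2 scale. Arrays have no count depth, and their number limits the precision.

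The platform annotation, updated with the RefSeq gene table of TAIR10.1, named 13960 of 26090 gene probes (13698 loci), and 450 controls were left out. Of the listed genes, 14 were matched by published locus and 2 by none. The genome build of the array design is not given, so no coordinates are printed. limma 3.58.1 in R 4.3.3 (lmFit, eBayes) was fitted with 1 coefficient per group and a dye term, over the 12 mutant arrays together and the 21 series arrays together. A probe was tested with at least 3 of 4 values in a mutant or 2 of 3 in a series sample. The dye term was called at 5225 probes (mutants) and 7184 (series), and in the series it also separates set 2 from sets 1 and 3. The fit was tested on simulated data with independent errors and a dye effect. The simulation held no limited values and no deviations shared within a set, so it does not cover these. The rule for named genes was every member, each listed gene called at least once, and the 3 genes most like each member called in at least 2 groups, with some uncalled list genes (LRX4 to LRX6, BUPS2, MRI, FER, CVY1, TUA1, bHLH089, SPT, INO) named after their values were seen. Members, lists and tests were chosen with earlier results of these data known, and the RALF-like and mutated-gene lists were added last.

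In the series, the labels give each set its own collection day, so the set is a true block. The series ratios, errors, calls and F tests given as results nevertheless come from a fit without it. The block was fitted as an alternative only. Deviations of arrays of one set had a median r of 0.43 over 63 pairs (-0.47 to 0.71), against -0.0046 between sets. By set, r was 0.45, -0.16 and 0.55 for sets 1 to 3, and set 2 is the one that the dye term separates. Deviations of same-numbered mutant arrays had a median r of 0.05 over 12 pairs (-0.20 to 0.29), against -0.01 between numbers. By number, r was 0.11, 0.21, 0.19 and -0.03 for replicates 1 to 4, so a weak pairing is not excluded. With the replicate block, calls over all gene probes went from 567 to 273 in ms1 and from 178 to 9 between ms1 and nzz. Alternatives were the fit without the dye term, other centring and scaling, limited values as missing, values read as dye ratios, the block, complete values only, groups fitted alone or all 33 arrays together, and each replicate left out.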

Additional observations from a re-analysis of the deposited data

Results flagged for a closer look

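ANX1 in ms1 had 1 array, replicate 2, at the limit of -6.64, far below the other 3. Of 15 groups of 4 arrays examined for such a gap this was the only one, and chance gives about 1 in 20. The ratios of LRX8 differed among the 7 series samples (F = 8.42), and between the samples labelled 3 and 7 by 5.70 on the log2 scale.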

How the results depend on the processing

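The 95 member results were recomputed 1052 times. In 34 of these a call was lost, in 20 one was gained and in 998 the side of the threshold was kept, and 61 uncalled values and no called one changed sign. The 4 called ratios (LRX8 in nzz and sample 6, ANX1 in nzz and ms1) kept their call in 25 of 47 recomputations. The count of members called in nzz (2, beside 3967 of 26046 gene probes) became 0 without the dye term (2403 gene probes) and 0 with values read as dye ratios (742). It became 1 with nzz fitted alone (2614), and 0 to 1 with a replicate left out. That in ms1 (1, beside 567 of 26039 gene probes) became 0 without the dye term (444 gene probes), 2 with limited values missing (747 of 24446) and 0 as dye ratios (729). It became 0 with ms1 fitted alone (where 0 of 26039 gene probes were called), and 0 to 2 with a replicate left out. That between ap3 and nzz (0, beside 754 of 25974 gene probes) became 1 with limited values missing (ANX1, adjusted p = 0.0237 by limma), where 915 of 23973 gene probes were called. The series count (1, beside 230 of 26072 gene probes in sample 6) became 0 without the dye term (190 gene probes in sample 6), 2 with centred arrays (252) and 3 with limited values missing (492 of 25533). It became 0 as dye ratios (76), 3 with the replicate block (756), 6 with all 33 arrays in 1 fit (where 708 of 26072 probes were called in sample 6), and 0 without each set. It stayed at 1 with scaled arrays, where the LRX8 call in sample 6 was lost and LRX9 passed in sample 7. The F count (1) became 0 without the dye term, 0 with scaled arrays, 0 as dye ratios, 3 with all 33 arrays, and 0 without each set. The replicate block changed no count of members in the mutants, and BUPS1 lost its ms1 call under it (adjusted p = 0.0558). Read as dye ratios, RALFL25 turned to 0.0687 in nzz, 0.0321 in ms1 and 0.18 in sample 6, uncalled, and LRX8 stood at -2.09 and ANX1 at -0.34 in nzz. The cause of these changes was not tested. Signal intensities were not analysed here, so signal over background cannot be set beside a ratio, and 6 of the members' 165 values are bounds.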
